A study of Mus musculus with 27 samples.

Results

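Gene expression was compared between zone 1 and zone 3 of the maternal liver lobule at day 16 post coitum (dpc16), in 6 of the 27 laser microdissection RNA-seq libraries of the series. The 6 libraries were the 3 of zone 1 and the 3 of zone 3, and 11042 of the 21823 protein-coding genes in the table had an FPKM (fragments per kilobase of transcript, scaled to a common sequencing depth) of at least 1 in at least 3 of them. All groups were wild-type (WT) female C57BL/6 mice, the study methods naming the C57BL/6N substrain and young adult animals, and the 9 groups were zones 1, 2 and 3 of non-pregnant (NP), dpc8 and dpc16 livers with 3 libraries each. NP and dpc8 libraries and zone 2 at dpc16 were used to place the dpc16 difference. For each library, areas of 2 mm2 per zone were cut from frozen sections. A general statement of the study ties its experiments to different mice but gives more repeats than the libraries of a zone here, so whether each library was 1 animal is not given, so the p-values measure the spread between these libraries.

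In the liver lobule, blood enters beside the portal vein and leaves by the central vein, so hepatocytes along that path meet falling oxygen and changing hormones and nutrients. By convention, zone 1 is periportal and zone 3 is pericentral. Periportal hepatocytes are known for urea synthesis, amino acid breakdown and glucose output, and pericentral hepatocytes for glutamine synthesis, bile acid synthesis and drug oxidation. Wnt proteins and R-spondins, made by endothelial cells of the central vein, keep the pericentral programme on through β-catenin. In late gestation the maternal liver supplies glucose and amino acids to the fetuses. The study asked how gene expression is zonated as pregnancy proceeds.

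The depth that low FPKM values imply was 7.53 to 22.8 M mapped reads (M, mega) in the 6 libraries, and 1 read on a transcript of 1 kb effective length was worth 0.0439 to 0.133 FPKM. The library of zone 3, replicate 3, stood apart. Its log2 values correlated with those of the other zone 3 libraries at Pearson's r of 0.865 and 0.866, while those 2 correlated with each other at 0.970 (across genes, which are not independent replicates). The summed FPKM of a list of connective tissue and smooth muscle genes was 3009 in it and 108 to 275 in the other 5 libraries. Its 4 Y-linked genes summed to 16.6 FPKM although the labels give female mice, against 2.97 in zone 1 replicate 3 and 0 in the other 4 libraries. Albumin (Alb) made up 9.59% of its summed FPKM and 15.2 to 20.6% in the others. Across the series, 6 libraries held more than 5 FPKM of Y-linked genes. The part of these differences in the results below was not tested, and values without zone 3 replicate 3 are given beside many of the results that it changes. Of the medians of 31 gene lists described below, 7 changed sign without that library. Among the 7 were those of the connective tissue list (−0.75 to 0.55) and the heme and iron list (0.14 to −0.03).

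Zone 1 and zone 3 differed in 199 genes at dpc16 (limma on log2(FPKM + 1), adjusted p under 0.05). Of the genes tested, 100 (0.906%) were higher and 99 (0.897%) were lower in zone 1, and the median log2 difference, zone 1 minus zone 3, over all genes was 0.01. The zone 1 and zone 3 libraries did not overlap in 198 of these genes, against 15.5% of all genes tested, and the exception was Rasgef1b, which is named for that alone, after its values were seen. Treating same-numbered libraries as pairs (a replicate block) gave 264 genes, 146 higher and 118 lower, among them all 199. Without zone 3 replicate 3, 181 genes passed, of which 161 were among the 199 with the same direction, and without the 6 libraries of the series with more than 5 FPKM of Y-linked genes 347 passed. Of the 199, 53 (28 higher, 25 lower) reached 1 FPKM in the 3 libraries of the higher zone and in none of the other, so they passed the filter only through the zone where they are high, and their calls are a description of genes selected that way. They include Aldh1b1, Cdh1, C9, Dll4 and Rhbg, described below. With no filter each of these was still called, Dll4 with the highest adjusted p (0.0339 by limma). At the edge of the threshold, Zap70 was just inside (adjusted p = 0.0496, log2 difference 1.77) and Fam13a just outside (0.0503, 1.68, and called with the block), both named for that place. Without zone 3 replicate 3 the adjusted p was 0.249 for Zap70 and 0.288 for Rasgef1b.

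The values of 4 zone markers are given first. Cyp2f2, a cytochrome P450 of periportal hepatocytes (chr7:27119909-27133660, + strand), was at 778, 574 and 1467 FPKM in the 3 zone 1 libraries and at 2.2, 3.06 and 0.764 in the 3 of zone 3. The log2 difference was 8.26 ± 0.52 (SE; adjusted p = 3.60e-10 by limma). Aldh1b1, a mitochondrial aldehyde dehydrogenase (chr4:45799022-45804604, + strand), was at 342, 332 and 566 FPKM in zone 1 and at 0.60, 0.468 and 0.146 in zone 3, a log2 difference of 8.17 ± 0.45 (adjusted p = 1.13e-10). Both were thus abundant in each zone 1 library and near 0 in each zone 3 library. Lect2, a secreted hepatokine (chr13:56542464-56548502, − strand), was at 1.21, 0.64 and 0.941 FPKM in zone 1 and at 138, 129 and 130.3 in zone 3, with a log2 difference of −6.12 ± 0.37 (adjusted p = 2.01e-10). Slc1a2, a glutamate transporter (chr2:102658659-102790784, + strand), was at 6.49, 10.2 and 4.85 FPKM in zone 1 and at 848, 784 and 447 in zone 3, with a log2 difference of −6.40 ± 0.47 (adjusted p = 6.38e-09). The 3 zone 3 values of Lect2 lay close together, and zone 3 replicate 3 was the lowest of the 3 for Slc1a2. In all 4 markers the libraries of the zones did not overlap, zone 3 replicate 3 included, but as these genes are among the 12 with the largest change in each direction, this is a description and no separate check of the labels.

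The promoters of the markers and of Sp5, a target gene of Wnt signalling, are shown, those of the markers because they stand at the ends of the zone difference and that of Sp5 because it holds a match. Each is the 250 bases before a RefSeq start (GRCm38.p6; that of Slc1a2 lies inside the annotated gene), 5′ to 3′ on the gene's strand, and capitals mark a match to the TCF/LEF motif CTTTGAT or the HNF4 motif CAAAGTCC, searched on both strands (the letters CAAAG can belong to both). The windows are at chr7:27119705-27119954 (+) for Cyp2f2, chr4:45798772-45799021 (+) for Aldh1b1, chr13:56548539-56548788 (−) for Lect2, chr2:102706188-102706437 (+) for Slc1a2 and chr2:70474673-70474922 (+) for Sp5.
Cyp2f2: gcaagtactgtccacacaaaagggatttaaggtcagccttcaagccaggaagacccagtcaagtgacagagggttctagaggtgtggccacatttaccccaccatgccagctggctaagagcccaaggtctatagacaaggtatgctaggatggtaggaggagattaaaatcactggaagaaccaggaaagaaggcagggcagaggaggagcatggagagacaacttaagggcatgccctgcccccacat
Aldh1b1: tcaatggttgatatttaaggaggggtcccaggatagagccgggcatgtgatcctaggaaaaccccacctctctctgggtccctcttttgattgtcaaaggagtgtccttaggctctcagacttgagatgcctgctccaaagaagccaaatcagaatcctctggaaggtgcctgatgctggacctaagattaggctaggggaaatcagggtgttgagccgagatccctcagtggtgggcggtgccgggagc
Lect2: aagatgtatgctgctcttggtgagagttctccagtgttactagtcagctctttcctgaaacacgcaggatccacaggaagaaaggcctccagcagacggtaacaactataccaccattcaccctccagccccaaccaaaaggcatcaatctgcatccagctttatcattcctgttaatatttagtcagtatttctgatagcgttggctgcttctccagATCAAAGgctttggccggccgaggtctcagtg
Slc1a2: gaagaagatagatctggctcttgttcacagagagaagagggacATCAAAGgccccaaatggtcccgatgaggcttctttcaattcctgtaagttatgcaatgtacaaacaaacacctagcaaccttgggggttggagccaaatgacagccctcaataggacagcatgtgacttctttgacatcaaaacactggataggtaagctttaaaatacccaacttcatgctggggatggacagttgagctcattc
Sp5: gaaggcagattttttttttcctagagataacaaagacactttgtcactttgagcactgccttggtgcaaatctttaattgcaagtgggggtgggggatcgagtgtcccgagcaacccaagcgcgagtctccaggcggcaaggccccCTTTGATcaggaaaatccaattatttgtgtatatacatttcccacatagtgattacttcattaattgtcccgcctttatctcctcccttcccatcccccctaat
A TCF/LEF match was found in the windows of Lect2, Slc1a2 and Sp5, all lower in zone 1, and neither motif in those of Cyp2f2 and Aldh1b1. The match did not follow the direction throughout: Hal, higher in zone 1, held TCF/LEF letters, and the windows read for Glul, Axin2, Oat, Cyp2e1 and Cyp1a2, all lower, held neither motif. RefSeq windows were matched for 75 of the 100 genes higher in zone 1 and 76 of the 99 lower. TCF/LEF letters were in 3 of the 75 (4%) and 8 of the 76 (10.5%), and in 2.89% of the 8777 genes tested that had a window. HNF4 letters were in 3 of the 75 (4%) and 7 of the 76 (9.21%), and in 1.68% of the genes tested. The 7 lower genes were Cyp2a5, Cyp2c67, Cyp2c69, Cyp3a16, Cyp3a41b, Extl1 and Slc22a3, and the 3 higher Cyp2a4, Slc3a1 and Srd5a1, named for the match. The cytochromes P450 among them belong to families of close copies, so their windows are not independent and the shares are a description. The 8 lower genes with the TCF/LEF letters were Cyp2c39, Lect2, Nat8f2, Nrp2, Phospho1, Slc1a2, Sp5 and Tnfrsf19, named here for the match alone. These are matches of letters, and binding was not measured.

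**Figure D1:**
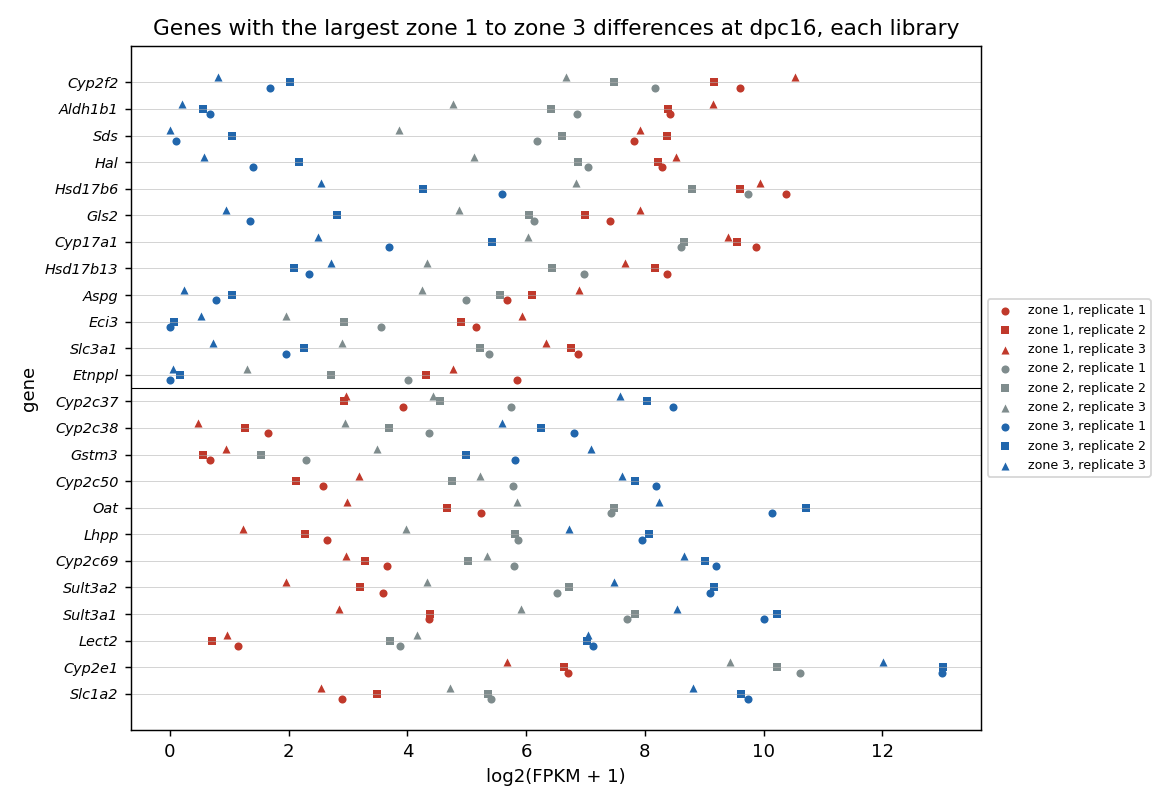
Log2(FPKM + 1) at dpc16 of the 12 genes with the largest positive and the 12 with the largest negative log2 difference, zone 1 minus zone 3 (gene on the vertical axis, log2(FPKM + 1) on the horizontal axis). Each point is 1 library, coloured by zone and shaped by replicate. The zone 1 and zone 3 points are apart for all 24 genes, and zone 2 points lie mostly between them.

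The 12 genes with the largest positive differences included enzymes of amino acid and steroid metabolism. Sds, serine dehydratase, was at 224, 331 and 241 FPKM in zone 1 and at 0.0737, 1.06 and 0 in zone 3 (log2 difference 7.65 ± 0.60, adjusted p = 1.48e-08). Hal, histidine ammonia-lyase, was at 313, 298 and 368 in zone 1 and at 1.63, 3.53 and 0.493 in zone 3. The log2 differences were 5.84 for Hsd17b6 (a retinol and steroid dehydrogenase), 5.74 for Gls2 (liver glutaminase), 5.73 for Cyp17a1 (a steroid hydroxylase) and 5.69 for Hsd17b13 (a lipid droplet dehydrogenase). Aspg (asparaginase) was at 5.54, Eci3 (an enoyl-CoA isomerase) at 5.13, Slc3a1 (a subunit of a cystine and dibasic amino acid transporter) at 5.00 and Etnppl (a phosphoethanolamine lyase) at 4.90. All 12 had an adjusted p of at most 2.99e-06 (limma), and all stayed past the threshold under every alternative run.

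The 12 genes with the largest negative differences included 5 cytochromes P450, 2 sulfotransferases and 1 glutathione transferase. Cyp2e1, the ethanol-oxidising cytochrome P450, was at 103, 98.9 and 49.9 FPKM in zone 1 and at 8168, 8257 and 4105 in zone 3 (log2 difference −6.33 ± 0.41, adjusted p = 6.94e-10). Oat, ornithine aminotransferase, was at 36.6, 24.4 and 6.93 in zone 1 and at 1126, 1675 and 300.1 in zone 3 (log2 difference −5.40 ± 0.62). Lhpp, a phosphatase, had a log2 difference of −5.53 ± 0.43. The other 7 beside Slc1a2 and Lect2 were the sulfotransferases Sult3a1 (−5.73) and Sult3a2 (−5.67), the cytochromes P450 Cyp2c69 (−5.65), Cyp2c50 (−5.25), Cyp2c38 (−5.09) and Cyp2c37 (−4.76) and the glutathione transferase Gstm3 (−5.23). These families hold close copies, between which reads can be split, so the value of a single member is uncertain. Gstm3 was at 54.9, 30.6 and 136 FPKM in zone 3, with replicate 3 the highest, whereas replicate 3 was the lowest zone 3 library for most genes of this group.

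Most markers of 2 reference lists were called in the direction of their list. Of 13 periportal markers tested, 8 were higher in zone 1 and 1 was lower, with a median log2 difference of 3.78. Cdh1 (E-cadherin) was at 17.5, 17.2 and 33.3 FPKM in zone 1 and at 0.126, 0.0541 and 0 in zone 3, Ctsc (a lysosomal protease) had a log2 difference of 3.78 and Pigr (the polymeric immunoglobulin receptor) of 2.61. The lower one was Rnase4, a secreted ribonuclease, at 53.1, 94.1 and 22.3 FPKM in zone 1 and at 784, 1211 and 401 in zone 3 (log2 difference −3.88 ± 0.49, adjusted p = 1.52e-05), which shares exons with Ang. Apoa4, Igfbp2, Serpina1e and Ifitm3 did not pass the test, with log2 differences of 2.37, 2.34, 2.03 and 0.26. With the block Apoa4 and Igfbp2 passed (adjusted p = 0.00454 and 0.0103). Of 13 pericentral markers tested, 12 were lower in zone 1 (11 without zone 3 replicate 3) and none was higher, with a median of −4.00. Gulo, which acts in vitamin C synthesis, was at 28.2, 23.4 and 27.1 FPKM in zone 1 and at 465, 470.1 and 332 in zone 3, and Rhbg, an ammonium transporter, was at 0.221, 0.306 and 0 in zone 1 and at 16.7, 21.1 and 14.6 in zone 3. The one not called was Cyp27a1 (log2 difference −1.17 ± 0.35, adjusted p = 0.114), which passed with quantile scaling, with array weights, without zone 1 replicate 3 and without the libraries above 5 FPKM of Y-linked genes (0.000627 to 0.0405). Of 19 hepatokine and junction genes, Cdh1 was higher and Lect2 and Cldn2 lower. Cldn2, a tight junction claudin, was at 7.66, 15.1 and 7.34 FPKM in zone 1 and at 55.1, 78.9 and 21.9 in zone 3 (−2.15 ± 0.50, adjusted p = 0.0186), and was not called without zone 1 replicate 1 or 3 or zone 3 replicate 1 or 2 (highest adjusted p 0.154). The abundant gene Rgn (regucalcin) was at 142, 113 and 173 FPKM in zone 1 and at 1159.8, 1023 and 955 in zone 3.

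Most enzymes of the urea cycle were higher in zone 1. Of 12 genes for the cycle and for ammonia entry, 6 were higher in zone 1 and 1 was lower, with a median log2 difference of 1.08. Without zone 3 replicate 3, 5 were higher and the median was 0.69. Cps1, carbamoyl phosphate synthetase, which takes up ammonia, was at 1088, 1173 and 1142 FPKM in zone 1 and at 188, 254 and 66 in zone 3 (log2 difference 2.94 ± 0.50, adjusted p = 0.000816). Ass1, argininosuccinate synthetase, was at 1327, 1175 and 1599 in zone 1 and at 258, 286 and 99.4 in zone 3, a log2 difference of 2.80 ± 0.45. Asl, argininosuccinate lyase, was at 837, 923 and 702 in zone 1 and at 129, 139 and 62.3 in zone 3 (2.96 ± 0.46). In each of these 3 genes the 3 zone 1 libraries lay close together, and zone 3 replicate 3 was the lowest of the 6. Without that library the log2 differences were 2.37 for Cps1, 2.32 for Ass1 and 2.59 for Asl, all still past the threshold. Otc, ornithine transcarbamylase, was at 232, 135 and 210.2 in zone 1 and at 78.6, 54 and 46.3 in zone 3 (1.67 ± 0.40, adjusted p = 0.0239), and its call was lost without zone 1 replicate 1 or 3 or zone 3 replicate 2 or 3 (highest adjusted p 0.137). Gls2, which frees ammonia from glutamine, was at 169.7, 127 and 241 in zone 1 and at 1.54, 6.02 and 0.935 in zone 3. Aqp9, a channel for glycerol and urea, was the lower one, at 43.9, 39.3 and 22.8 in zone 1 and at 255, 308 and 128 in zone 3 (−2.63 ± 0.41, adjusted p = 0.000255). Glud1 and Nags, which act before the cycle, did not pass (−0.32 and −0.12).

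The opposite branch, in which pericentral cells fix ammonia into glutamine, was lower in zone 1. Glul, glutamine synthetase, was at 113, 127 and 145 FPKM in zone 1, 138, 137 and 101 in zone 2 and 2039, 3152 and 1349 in zone 3 (log2 difference −4.00 ± 0.43, adjusted p = 1.54e-06). Zone 2 values of Glul overlapped those of zone 1 and not those of zone 3. Of 15 genes for serine, threonine, glycine and histidine breakdown, 7 were higher in zone 1 and none lower (median 0.70), and without zone 3 replicate 3, 4 passed (median 0.38). Besides Sds and Hal these were Sdsl (a serine dehydratase paralog, 4.18), Uroc1 (urocanate hydratase, 2.68), Amdhd1 (imidazolonepropionase, 2.62), Ftcd (formimidoyltransferase, 1.89) and Gldc (glycine decarboxylase, 3.30). Hal, Uroc1, Amdhd1 and Ftcd are consecutive enzymes of histidine breakdown, and all 4 were called higher in zone 1. Without zone 3 replicate 3 the adjusted p was 0.0659 for Amdhd1, 0.076 for Ftcd and 0.317 for Gldc. Gldc was also lost without any of the 3 zone 1 libraries in turn. None of 17 genes for aromatic amino acid and lysine breakdown passed (limma; 3 at an unadjusted p under 0.05, against 8.64% of all genes tested, the share for each such list count below). Their median was 0.20, and −0.08 without zone 3 replicate 3. Of 17 genes for proline, glutamate and branched-chain amino acids only Got1, aspartate aminotransferase, passed (2.15 ± 0.54, adjusted p = 0.0377), and it was lost without zone 1 replicate 1, 2 or 3 or zone 3 replicate 1 or 3 (highest adjusted p 0.203). The median of that list was 0.24, and −0.05 without zone 3 replicate 3.

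**Figure D2:**
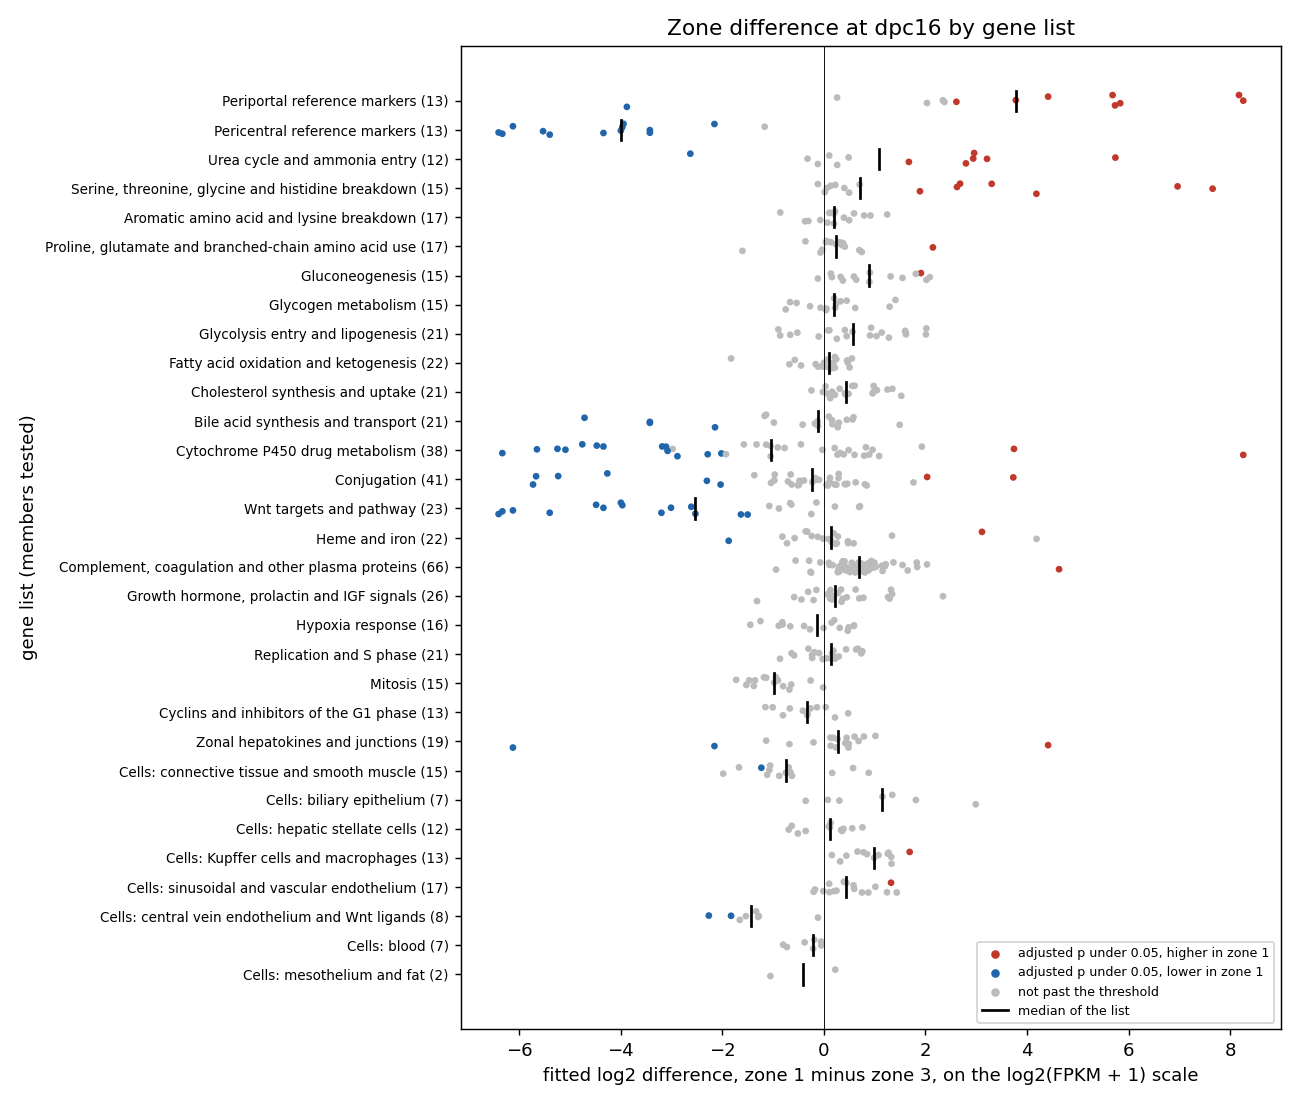
Fitted log2 difference, zone 1 minus zone 3, of each tested member of 31 gene lists at dpc16 (lists on the vertical axis with the number tested, log2 difference on the horizontal axis). Coloured points had an adjusted p under 0.05 and bars are list medians. Blue points gather in the pericentral, P450, conjugation and Wnt lists and red points in the periportal, urea cycle and serine to histidine lists, while fatty acid oxidation holds grey points only.

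Gluconeogenic genes were mostly fitted higher in zone 1, but few passed the test. Of 15 tested, 14 were fitted above 0 with a median log2 difference of 0.90 (0.98 without zone 3 replicate 3), 8 had an unadjusted p under 0.05 (8.64% of all genes tested did), and Fbp1 alone was called. Fbp1, fructose bisphosphatase, was at 1515, 1391 and 1278 FPKM in zone 1 and at 463, 556 and 195 in zone 3 (1.91 ± 0.45, adjusted p = 0.0228). It was not called without zone 1 replicate 1, 2 or 3 or zone 3 replicate 3 (highest adjusted p 0.197). With the replicate block 4 genes were called, among them Gpi1 (glucose phosphate isomerase, adjusted p = 0.0154) and G6pc (glucose phosphatase, 0.0429). G6pc was at 359, 179 and 184 in zone 1 and at 132, 49.5 and 22.3 in zone 3. Pck1, the cytosolic carboxykinase, was at 1336, 1476 and 1465 in zone 1 and at 699, 504 and 122 in zone 3 (2.02 ± 0.88, adjusted p = 0.459): its zones did not overlap, but the zone 3 libraries were far apart.

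Among lipid and glycogen genes no call was made in 4 lists. None of 22 genes of fatty acid oxidation and ketogenesis passed (limma; 0 at an unadjusted p under 0.05), with a median log2 difference of 0.09 that turned to −0.40 without zone 3 replicate 3. Cpt1a, the gate of mitochondrial oxidation, was at 232, 320.5 and 130.4 FPKM in zone 1 and at 199, 253 and 73.9 in zone 3. Replicate 3 was the lowest library of both zones. The 21 genes of glycolysis entry and lipogenesis had a median of 0.57, with 7 at an unadjusted p under 0.05 and 0 called, and with the block 1 was called, Acly (ATP citrate lyase, 2.01, adjusted p = 0.00492), which also passed without zone 3 replicate 3 (0.0399). Acly was at 44.6, 38.9 and 195 in zone 1 and 14.3, 10.3 and 30.7 in zone 3, and Fasn (fatty acid synthase) at 43, 41.1 and 310.3 in zone 1 and at 24.5, 16.9 and 87.1 in zone 3. Replicate 3 was thus the highest of both zones for both genes, more than 3 times the other zone 1 libraries for each. The lists of glycogen metabolism (15 genes, median 0.20, and −0.01 without zone 3 replicate 3) and cholesterol synthesis (21 genes, median 0.43, and 0.91 without it) held 2 and 4 genes at an unadjusted p under 0.05 and 0 calls.

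Drug-metabolising genes were lower in zone 1 more often than higher. Of 38 cytochromes P450 tested, 2 were higher and 13 lower, with a median log2 difference of −1.05. Cyp1a2, which oxidises caffeine, was at 17, 14.2 and 31.8 FPKM in zone 1 and at 478, 326 and 477 in zone 3 (−4.34 ± 0.53). The near-identical pair Cyp2a4 and Cyp2a5, of steroid and coumarin hydroxylation, was listed in opposite directions: Cyp2a4 at 2010.2, 1456 and 2497 in zone 1 and at 140.03, 139 and 154 in zone 3 (3.74), Cyp2a5 at 41.3, 24.1 and 133 in zone 1 and at 1319.9, 888 and 1322 in zone 3 (−4.47). How reads of this pair were divided is not given in the sources used here. The remaining lower ones were Cyp2c39, Cyp2c54, Cyp2c67, Cyp2b13, Cyp3a16 and Cyp3a41b, at −3.18 to −2.02. Of these, Cyp2c54 was lost without zone 1 replicate 1 or 2 or zone 3 replicate 1 or 2, Cyp2b13 without zone 1 replicate 2 or zone 3 replicate 1 or 3, and Cyp3a16 without zone 3 replicate 1 (highest adjusted p 0.141, 0.136 and 0.0518). Of 41 conjugation genes, 2 were higher (Sult5a1, 3.73, and Ugt1a9, 2.03, whose gene shares exons with other Ugt1a forms) and 6 lower, including Gstm2 (−4.26), Gstm6 (−2.30) and Gstm1. Gstm1 (−2.03) was not called without zone 1 replicate 1 or 2 or zone 3 replicate 1 or 3 (highest adjusted p 0.133). Ahr, the receptor that turns on Cyp1a2, was at 4.18, 5.19 and 3.39 in zone 1 and at 45.6, 55.4 and 27 in zone 3 (−3.01 ± 0.30, adjusted p = 5.95e-07).

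Of 21 genes of bile acid synthesis and transport, none was higher and 4 were lower in zone 1 (median −0.12, and −0.37 without zone 3 replicate 3). Cyp7a1, the rate-limiting enzyme of bile acid synthesis, was at 1.35, 2.24 and 12.9 FPKM in zone 1 and at 48.6, 43 and 59.2 in zone 3 (−3.43 ± 0.75, adjusted p = 0.0118), and zone 1 replicate 3 was the highest of its zone. Its call was lost without zone 1 replicate 1 or 2 or zone 3 replicate 3, and that of Cyp7b1, an oxysterol hydroxylase (−2.14), without zone 1 replicate 1 or 2 or zone 3 replicate 1 or 2 (highest adjusted p 0.107 and 0.151). The uptake carriers Slco1a1, at 1.31, 1.08 and 1.5 in zone 1 and at 79.6, 48 and 54 in zone 3, and Slco1b2 (−3.43 ± 0.38) kept their calls throughout.

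Of 8 central vein endothelial genes, among them Wnt ligands, 2 were lower in zone 1 and none higher. Rspo3, an R-spondin that strengthens Wnt signals, was at 0.532, 0.197 and 0.119 FPKM in zone 1 and at 5.63, 7.12 and 3.24 in zone 3 (−2.27 ± 0.32, adjusted p = 7.23e-05). Wnt2 was at 0.187, 0.388 and 0.624 in zone 1 and at 3.97, 3.93 and 3.89 in zone 3 (−1.83 ± 0.32, adjusted p = 0.0011). These 2 ligands were the called members of the list, whose 8 tested genes were all fitted below 0 (median −1.43), and 2 more of the 10 listed were not tested. Both ligands were under 1 FPKM in every zone 1 library and so passed the filter only through zone 3. With no filter their adjusted p was 0.000109 for Rspo3 and 0.00146 for Wnt2. Kit, a further gene of that list, was at 1.81, 2.05 and 0.49 in zone 1 and at 6.27, 7.92 and 5.17 in zone 3 and did not pass (adjusted p = 0.194, and 0.134 with the block). It passed with the block in the 6 libraries alone (0.0395) and in the 9 dpc16 libraries alone (0.0321). In bulk tissue, fewer cells of a type and less RNA per cell cannot be told apart.

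Of 23 Wnt targets and pathway genes tested, 14 were lower in zone 1 and none higher, with a median log2 difference of −2.53 (−2.39 without zone 3 replicate 3). Tbx3, a transcription factor, was at 1.83, 2.49 and 0.68 FPKM in zone 1 and at 63.8, 77.2 and 35.7 in zone 3 (−4.48 ± 0.48, adjusted p = 1.54e-06). The feedback inhibitors Notum (3.17, 1.51 and 1.25 in zone 1 against 32.6, 25.5 and 19.5 in zone 3), Axin2 (0.696, 0.283 and 2.16 in zone 1 against 7.9, 19.6 and 6.24 in zone 3) and Rnf43 (5.19, 7.17 and 7.48 in zone 1 against 20.4, 33.1 and 16.5 in zone 3) were also lower. The R-spondin receptor Lgr5 was at 0.17, 0.0864 and 0 in zone 1 and at 4.72, 4.6 and 8.06 in zone 3 (−2.61 ± 0.51, adjusted p = 0.00414), and Sp5 was listed at 0 in the 3 zone 1 libraries and at 2.03, 2.59 and 1.09 in zone 3 (adjusted p = 0.000273). Lgr5 and Sp5 reached 1 FPKM only in zone 3, through which they passed the filter, and with no filter their adjusted p was 0.00738 and 6.83e-05. Axin2 was not called without zone 1 replicate 2 or zone 3 replicate 2, nor Rnf43 without zone 1 replicate 1 or 2 or zone 3 replicate 1 or 2 (highest adjusted p 0.0789 and 0.153), and Sp5 and Axin2 were not called in the 6 libraries alone. Ctnnb1, which encodes β-catenin, was at 148, 141 and 143 in zone 1 and at 171, 139 and 211 in zone 3 (−0.25, 95% interval −0.65 to 0.16). The related receptor Lgr4 and the transcription factor Tcf7l2 were fitted higher in zone 1 (0.69 and 0.71) and did not pass.

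**Figure D3:**
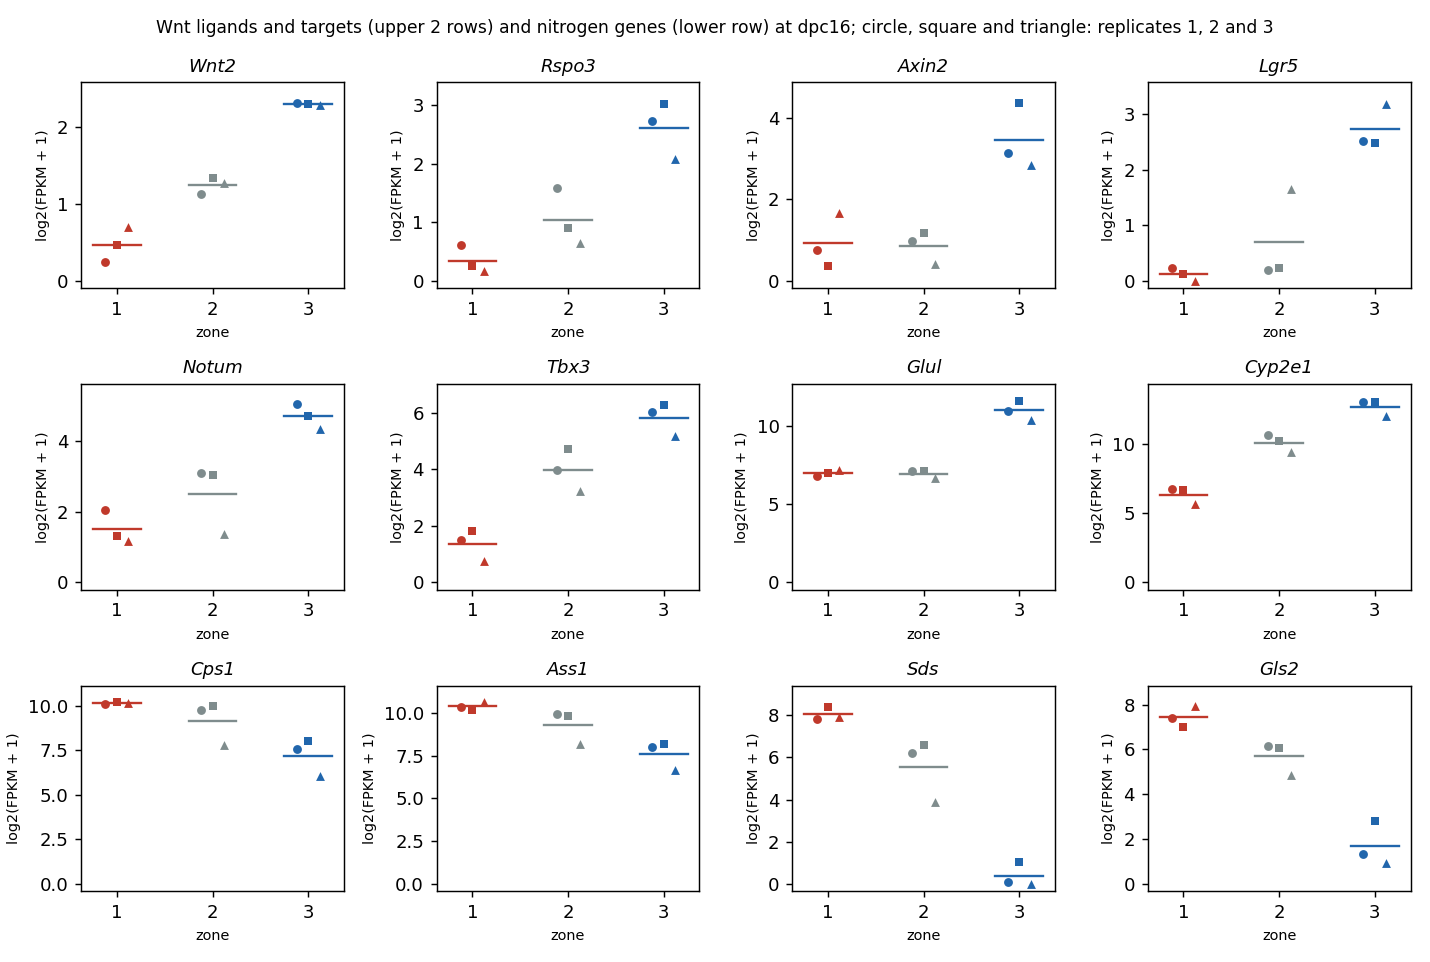
Log2(FPKM + 1) of 12 genes in zones 1, 2 and 3 at dpc16 (zone on the horizontal axis, log2(FPKM + 1) on the vertical axis). Points are libraries, shaped by replicate, and bars are means of 3. Wnt2, Rspo3, Tbx3 and Cyp2e1 have intermediate zone 2 means, whereas zone 2 of Glul and Axin2 lies at the level of zone 1.

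Zone 2 held intermediate levels for nearly all of these genes. Its mean lay between those of zones 1 and 3 for 99 of the 100 higher genes and 92 of the 99 lower genes, the other 7 lower genes having a zone 2 mean under that of zone 1. On a scale where 0 is the mean of zone 3 and 1 that of zone 1, the median place of zone 2 was 0.51 for the higher genes and 0.61 for the lower genes, of which 78 were nearer to zone 1. Zone 2 replicate 3 also stood apart, with 5278 FPKM of connective tissue genes and 23.2 of Y-linked genes. Cps1, for example, was at 869, 1005 and 218 FPKM in zone 2. No test was run on zone 2.

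Among all genes tested, 0.906% were called higher and 0.897% lower, and the calls of plasma protein, iron and hormone genes are set beside these shares. Of 66 genes of complement, coagulation and other plasma proteins, 60 were fitted above 0 (median 0.69, and 0.34 without zone 3 replicate 3), and C9 was the 1 call (4 with the block, and 9 without the libraries above 5 FPKM of Y-linked genes). C9, which completes the membrane attack complex, was at 56.9, 42.4 and 23 FPKM in zone 1 and at 0.964, 0.844 and 0.095 in zone 3 (4.63 ± 0.64, adjusted p = 6.05e-05). It passed the filter only through zone 1. Alb was at 203747, 163523 and 151511 in zone 1 and at 137739, 126695 and 54993 in zone 3 (0.80 ± 0.49, adjusted p = 0.778). In the heme and iron list of 22 genes, Hamp2 was higher and Blvrb, biliverdin reductase, lower (−1.87 ± 0.27, adjusted p = 0.000108). Hamp2, a copy of the hepcidin gene, was at 1395, 1079.7 and 1958 in zone 1 and at 251, 187 and 95.6 in zone 3 (3.11 ± 0.64, adjusted p = 0.00615, and 0.0522 without zone 3 replicate 3). Hamp itself, the hormone that limits iron export, was at 423, 1669.9 and 80.2 in zone 1 and at 12.1, 133 and 4.41 in zone 3: it varied more than 10-fold among libraries of each zone, replicate 2 being the highest in both, and it did not pass (adjusted p = 0.0718) but passed with the replicate block (5.25e-06), with array weights, and without zone 1 replicate 3 or zone 3 replicate 2. With the block the list had 3 genes higher and 1 lower. Of 26 genes of growth hormone, prolactin and IGF signals none passed (limma; 5 at an unadjusted p under 0.05, median 0.22, and 0.11 without zone 3 replicate 3), and with the block 1 was higher and 1 lower. The receptors Ghr (2391, 1590.2 and 2250.5 in zone 1 against 1908, 1580.2 and 1110.1 in zone 3) and Prlr (2192, 2037 and 2211 in zone 1 against 2128, 1929.6 and 1189 in zone 3) overlapped between zones, and Igf1, the growth factor, was at 559.7, 522 and 523 in zone 1 and at 260.2, 311 and 135 in zone 3 (adjusted p = 0.252). Of 16 hypoxia genes 0 were called (limma), with 3 at an unadjusted p under 0.05 (median −0.14, and 0.08 without zone 3 replicate 3).

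Cell division genes were at low levels at dpc16, and 15 of 29 mitosis genes passed the filter. None of the 15 was called (limma; 2 at an unadjusted p under 0.05). All 15 were fitted below 0, with a median of −0.98, and of −0.30 without zone 3 replicate 3. A low gene could pass the filter through zone 3 alone, as Ube2c did, so the shared sign may in part be set by the filter and is a description. Mki67, the proliferation marker, was at 0.0876, 0.709 and 1.82 FPKM in zone 1 and at 2.97, 1.39 and 12.3 in zone 3 (−1.53 ± 0.62, adjusted p = 0.386). Top2a was at 0.0573, 1.43 and 1.7 in zone 1 and at 1.26, 0.819 and 11.9 in zone 3, and Ube2c, which acts in mitotic exit, at 0.125, 0.173 and 0.67 in zone 1 and at 1.28, 1.05 and 16.2 in zone 3. For these 3 genes zone 3 replicate 3, the library with the connective tissue and Y-linked genes, was the highest of the 6. The lists of replication (21 genes, median 0.14, and 0.43 without zone 3 replicate 3) and of cyclins and inhibitors of the G1 phase (13 genes, median −0.33, and −0.06 without it) held 1 gene each at an unadjusted p under 0.05 and 0 calls. Ccnd1, cyclin D1, was at 12.9, 12 and 17.3 in zone 1 and at 13.9, 13 and 26.4 in zone 3. Cdkn3, a phosphatase of cyclin-dependent kinases outside these lists, was listed at 0 in all 3 zone 1 libraries and at 3.42, 1.7 and 2.19 in zone 3 (adjusted p = 0.038, lost when any of the 6 libraries was left out, up to 0.204).

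Calls among markers of other cells are set beside the shares of all genes tested, 0.906% called higher and 0.897% called lower. Of 13 Kupffer cell and macrophage genes, all 13 were fitted above 0 (median 0.99, and 0.63 without zone 3 replicate 3), 9 had an unadjusted p under 0.05 and Clec4f, a Kupffer cell lectin, was called (43.4, 36.4 and 39 in zone 1 against 12.3, 12.9 and 9.7 in zone 3, adjusted p = 0.00773, not called in the 9 dpc16 libraries alone with the block, 0.0677). The list summed to 212 to 286 FPKM in zone 1 and 76.5 to 157 in zone 3, without overlap, and 3 of its genes were called with the block. In zone 2 it summed to 387, 351 and 114 FPKM in replicates 1, 2 and 3. Cd5l and C1qa, made by these macrophages, did not pass (adjusted p = 0.114 and 0.122) but passed with the block (0.0292 and 0.0109). Of 17 endothelial genes Dll4, a Notch ligand, was called (1.33, 1.35 and 5.02 in zone 1 against 0.397, 0.371 and 0.099 in zone 3), and the call was lost without zone 1 replicate 3 or any zone 3 library (highest adjusted p 0.303). The endothelial list summed to 310 to 315 FPKM in zone 1 and 155 to 266 in zone 3. Of 15 connective tissue genes tested, Lum (lumican) was called lower (1.71, 2.3 and 1.41 in zone 1 against 4.46, 5.35 and 7.05 in zone 3, adjusted p = 0.0168), and 0.115 without zone 3 replicate 3; it was also lost without zone 1 replicate 1 or 3 or zone 3 replicate 2. The biliary (7 genes), stellate cell (12), blood (7) and mesothelium or fat (2) lists had 0 calls, with 2, 0, 0 and 1 genes at an unadjusted p under 0.05. The biliary marker Sox9 was at 2.02, 3.95 and 2.06 in zone 1 and at 0.0189, 0.0145 and 1.69 in zone 3 (adjusted p = 0.0859), and passed with the block (0.0323), without zone 3 replicate 3 (0.00931), with quantile scaling and with array weights. With the block in the 6 or the 9 dpc16 libraries alone, Sox9 did not pass (0.235 and 0.202). Epcam was at 1.26, 2.8 and 4.04 in zone 1 and listed at 0 in zone 3 (adjusted p = 0.0707). The part of these cells in the zone differences was not tested.

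**Figure D4:**
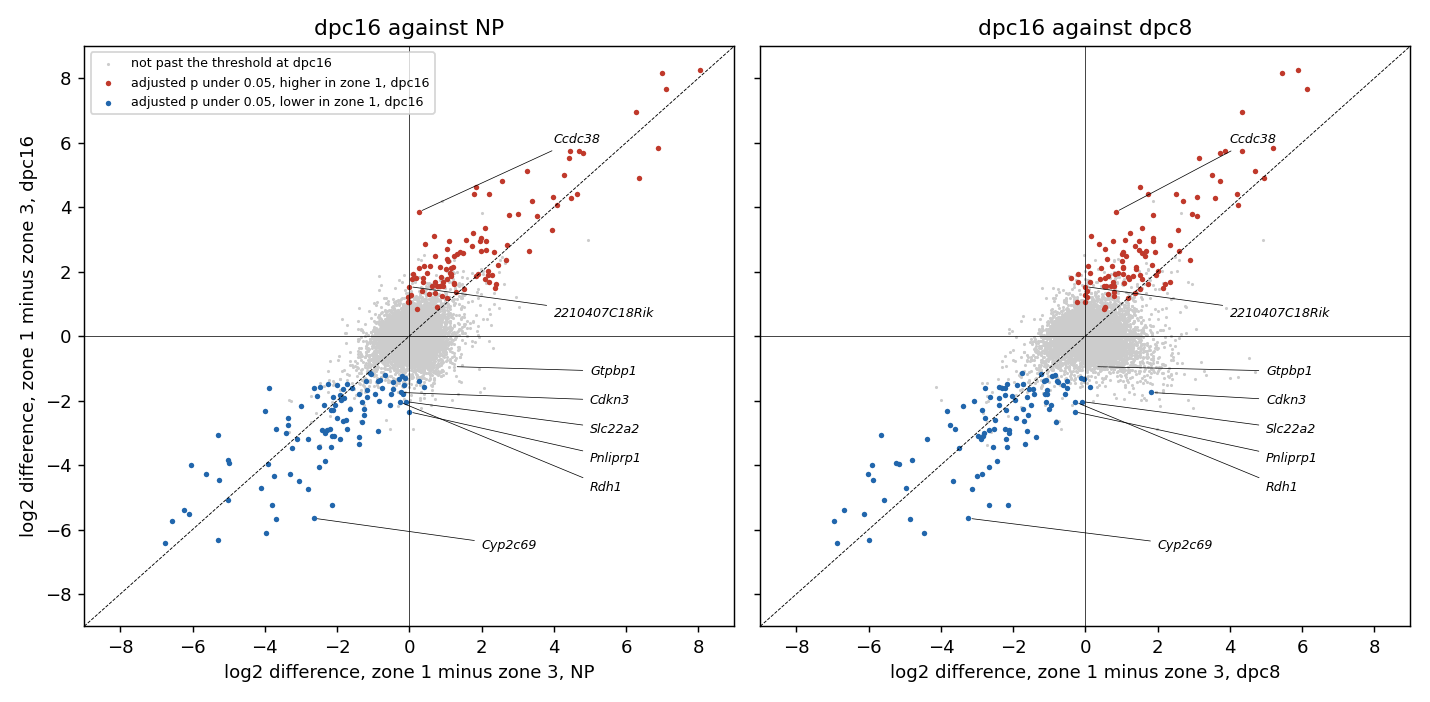
Log2 difference, zone 1 minus zone 3, at dpc16 (vertical axis) against that at NP (left) and at dpc8 (right), 1 point per gene tested. The dashed line marks equal differences. Most coloured points lie in the same quadrants at both stages, and the 8 labelled genes are those whose zone difference itself differed between stages, with Ccdc38 above the cloud and Cyp2c69, Pnliprp1, Slc22a2 and Rdh1 below it.

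The zone difference at dpc16 was set beside those of NP and dpc8, whose libraries are separate from those of dpc16. Over the same genes, 153 (1.39%) were called at NP and 181 (1.64%) at dpc8. Of the dpc16 calls, 106 were called in the same direction at NP (53.3% of the dpc16 calls and 69.3% of the NP calls), and 104 at dpc8 (52.3% and 57.5%). The same direction at all 3 stages was called for 98 genes, 36 higher and 62 lower. Of the 199 genes, 86 were called at dpc16 alone, 55 higher and 31 lower, and 75 of these had the dpc16 sign at both other stages, so that a call at 1 stage is no measure of a difference between stages. Cps1, for example, had log2 differences of 1.10 at NP, 0.77 at dpc8 and 2.94 at dpc16, and the test of the difference gave an adjusted p of 0.998 against NP and 0.748 against dpc8. For Hamp2 they were 0.69, 0.16 and 3.11 (adjusted p = 0.998 and 0.748). For Lect2 they were −3.96, −4.47 and −6.12 (adjusted p = 0.37 and 0.748).

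The test of the difference itself called 7 genes (0.0634%) against NP and 7 (0.0634%) against dpc8, 6 of them in both, with 2 higher and 5 lower in each. At an unadjusted p under 0.05 there were 357 (3.23%) and 598 genes (5.42%). The filter was set on the dpc16 libraries, so a gene detected at NP or dpc8 alone could not enter this test. Of the libraries compared, NP zone 1 replicate 1, NP zone 3 replicate 2 and dpc8 zone 1 replicate 1 were also above 5 FPKM of Y-linked genes, with summed values of 15.4, 7.92 and 20.5 FPKM. Without such libraries the test called 3 genes against NP and 7 against dpc8, and of the 7 called against NP, 2210407C18Rik, Slc22a2, Gtpbp1 and Rdh1 did not pass, while of the 7 called against dpc8, Cdkn3, Rdh1 and 2210407C18Rik did not. Cyp2c69 (chr19:39842814-39886799, − strand) was at 95, 173 and 105 FPKM in zone 1 and 634, 753 and 901 in zone 3 at NP, at 98.3, 97.5 and 156 and 1086, 900.4 and 1319 at dpc8, and at 11.6, 8.72 and 6.85 in zone 1 and at 583, 515 and 403 in zone 3 at dpc16. Its zone 1 level at dpc16 was below that of every NP and dpc8 zone 1 library, and the zone difference minus that of NP was −3.01 ± 0.46 on the log2 scale (adjusted p = 0.00419), a call kept in all 20 alternatives. Minus that of dpc8 it was −2.41 ± 0.46 (adjusted p = 0.0488), and this was lost whenever 1 library of either stage was left out.

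**Figure D5:**
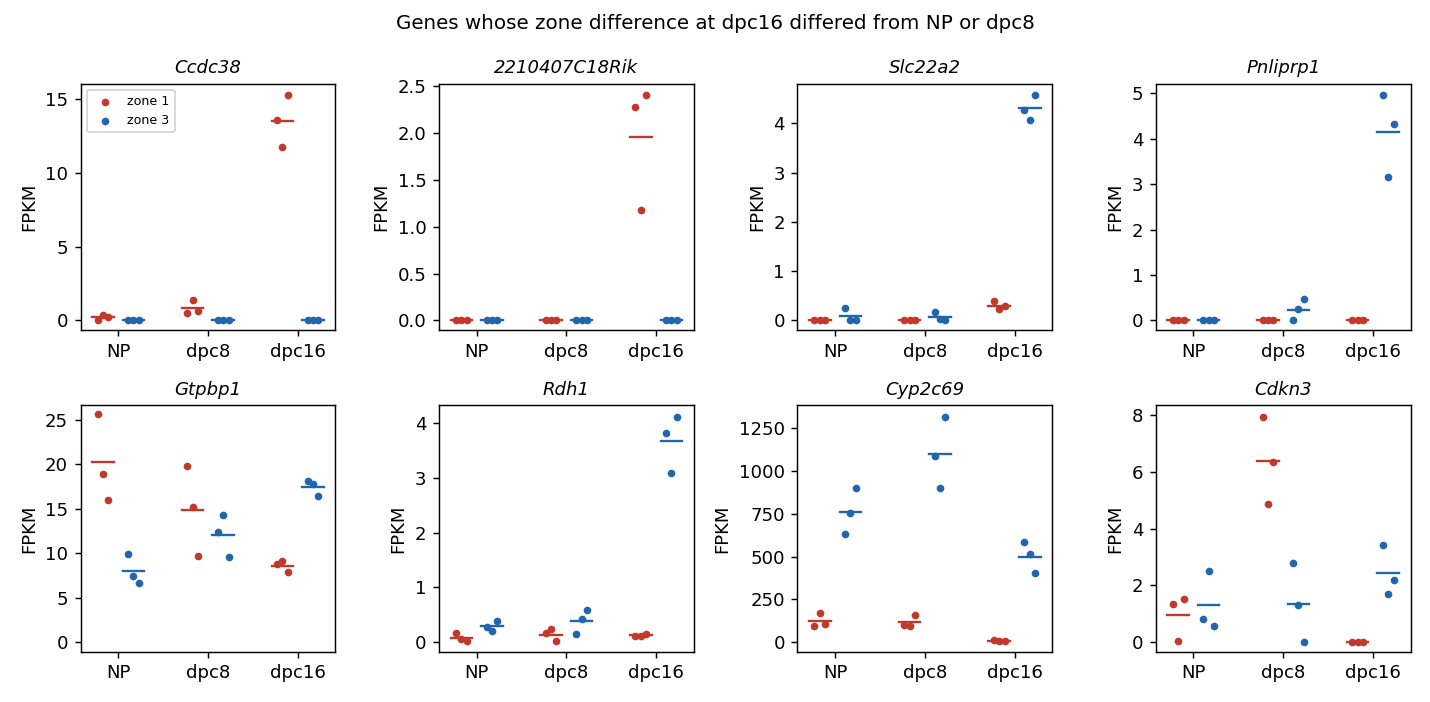
FPKM of the 8 genes whose zone difference at dpc16 differed from that at NP or at dpc8, in zones 1 and 3 of each stage (stage on the horizontal axis, FPKM on the vertical axis, 1 point per library, bars for means of 3). Ccdc38 and 2210407C18Rik are raised in zone 1 at dpc16 and Slc22a2, Pnliprp1 and Rdh1 in zone 3 at dpc16, while Gtpbp1 changes the order of its zones.

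In 5 of these genes, RNA was low (at most 1.4 FPKM) in every zone 1 and zone 3 library of NP and dpc8 and above 1 FPKM in all 3 libraries of 1 zone at dpc16, the zone through which they passed the filter. With a pseudocount of 0.1 none of the 5 was called against NP or dpc8. Slc22a2, an organic cation transporter (chr17:12584132-12628488, + strand), was at 4.28, 4.07 and 4.58 FPKM in zone 3 at dpc16, at 0.385, 0.224 and 0.289 in zone 1, and at most 0.245 in the 12 NP and dpc8 libraries of zones 1 and 3 (difference −1.93 ± 0.26 against NP, adjusted p = 0.000957). Pnliprp1, a lipase-related protein (chr19:58728887-58744169, + strand), was at 4.96, 3.16 and 4.33 in zone 3 and listed at 0 in zone 1 at dpc16, and at 0, 0.241 and 0.477 in zone 3 at dpc8 (adjusted p = 0.000175 and 0.000845). Rdh1, a retinol dehydrogenase (chr10:127759721-127768297, + strand), was at 3.82, 3.08 and 4.12 in zone 3 and 0.111, 0.119 and 0.15 in zone 1, against 0.28, 0.204 and 0.393 in zone 3 at NP and 0.145, 0.425 and 0.581 at dpc8 (difference −1.79 ± 0.31 against NP and −1.77 ± 0.31 against dpc8). Ccdc38, a coiled-coil protein (chr10:93540632-93584327, + strand), was at 13.6, 11.7 and 15.3 in zone 1 at dpc16, at 0, 0.39 and 0.253 at NP and at 0.506, 1.4 and 0.667 at dpc8, and listed at 0 in zone 3 at dpc16 (adjusted p = 0.00177 and 0.0183). 2210407C18Rik (chr11:58608204-58616075, − strand) was at 2.27, 1.18 and 2.41 in zone 1 at dpc16 and listed at 0 in all other libraries of zones 1 and 3 (adjusted p = 0.0157 and 0.0183). Values of 1 to 5 FPKM are low, and 1 read on 1 kb was worth 0.0439 to 0.133 FPKM in the 6 libraries.

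Of 16 tested genes within 50000 bases of these genes, 4 were called and 12 were not. Among all genes tested, 0.906% were called higher and 0.897% lower. Near Ccdc38 on chromosome 10 lie Hal, with 21327 bases between them, and Amdhd1, 598 bases away on the opposite strand, both higher in zone 1. Snrpf, which overlaps the end of Ccdc38 on the opposite strand, was not called (log2 difference −0.38, adjusted p = 0.93 by limma). Rdh9, of the same dehydrogenase family as Rdh1 and 8088 bases from it, was at a mean of 11.9 FPKM in zone 1 and 251 in zone 3 (log2 difference −4.29, adjusted p = 1.84e-05). Rdh16, a further member 32854 bases away, was not called (−0.76, adjusted p = 0.809), nor was Cyp2c40 beside Cyp2c69 (−0.03, 0.993) or any neighbour of Cdkn3 and Gtpbp1. These neighbours were named for their position after the values were seen.

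The other 2 genes differed in another way. Gtpbp1, a GTP-binding protein (chr15:79690845-79721479, + strand), was at 25.6, 18.9 and 16 FPKM in zone 1 and 9.89, 7.48 and 6.65 in zone 3 at NP, and at 8.75, 9.06 and 7.88 in zone 1 and at 18.1, 17.8 and 16.5 in zone 3 at dpc16, so the order of the zones turned (difference −2.17 ± 0.37, adjusted p = 0.0135). Within a stage the zones gave an adjusted p of 0.0112 at NP and 0.0687 at dpc16 (limma). At dpc8 the zones overlapped (19.8, 15.2 and 9.67 and 12.4, 14.2 and 9.53). Cdkn3 was the 1 gene called in opposite directions at dpc16 and dpc8. It passed the filter only through zone 3 at dpc16, where it is high, and with no filter its dpc16 call was lost (adjusted p = 0.0544). It was at 7.94, 4.86 and 6.34 in zone 1 and 2.78, 1.31 and 0 in zone 3 at dpc8, against 0 in zone 1 at dpc16 (adjusted p of the difference 0.0183). Mki67 had the same order of values, 22.9, 10.4 and 14.1 in zone 1 and 7.21, 1.33 and 0.924 in zone 3 at dpc8 (difference −3.79 ± 0.87, adjusted p = 0.227, and 0.0473 with the replicate block). In both genes the highest dpc8 value was that of zone 1 replicate 1. The mitosis genes that passed the dpc16 filter had a median log2 difference of 2.01 at dpc8, 0.14 at NP and −0.98 at dpc16.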

How the data were processed

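RNA of microdissected zones 1, 2 and 3 was sequenced after ribosomal RNA depletion (KAPA RNA HyperPrep, single-end reads). According to the study methods and the submitters' processing notes, the authors trimmed reads with cutadapt, aligned them to mm10 with HISAT2 2.1.0, and computed the deposited FPKM values of protein-coding GENCODE vM22 genes with Cuffdiff of Cufflinks 2.2.1. Whether counting used strand is not given in the sources used here. FPKM are not counts, and reads of near-identical genes may be divided among copies. Depth was estimated from the steps of low values (92.7 to 98.9% on whole multiples, within 0.05 of a step), was 7.53 to 33.3 M reads (M, mega) in the 27 libraries, and limits values under about 1 FPKM.

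Log2(FPKM + 1) values of genes with at least 1 FPKM in 3 or more of the 6 libraries were fitted with limma 3.58.1 (R 4.3.3): 9 group means over 27 libraries, trend and robust settings, two-sided tests, Benjamini-Hochberg adjustment over all genes, threshold 0.05. Differences are on the log2(FPKM + 1) scale and understate changes of low genes. The fit was tested on simulated data. Same-numbered zone 1 and zone 3 libraries of dpc16 deviated together (r = 0.25, 0.26 and 0.38, each above 0.1), so the numbers were treated as pairs in an alternative. Named genes were the 12 with the largest change and the 5 most abundant per direction among called genes without overlap, 4 markers, list members and up to 6 genes per direction in each difference between stages. Members, lists and tests were chosen with earlier results of these data known. Some items are not reported here. Positions came from GENCODE vM21 (21609 genes matched). The alternatives were the block, pseudocount 0.1, other filters, quantile and median ratio scaling, array weights, fewer libraries and leaving out each library.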

Additional observations from a re-analysis of the deposited data

Results flagged for a closer look

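The zone difference at dpc16 differed from that at another stage for 8 genes by a test of the difference itself (limma contrast between stages, Benjamini-Hochberg adjustment over 11042 genes). The genes were filtered on the dpc16 libraries, and Slc22a2, Pnliprp1, Rdh1, Ccdc38 and 2210407C18Rik, at most 1.4 FPKM in zones 1 and 3 of NP and dpc8, passed only through the dpc16 zone where they are high. Cdkn3, which is not low at dpc8, also passed only through zone 3 of dpc16. The calls of these 6 genes are a description of genes selected that way. Against NP the adjusted p was 0.000175 for Pnliprp1, 0.000957 for Slc22a2, 0.00177 for Ccdc38, 0.00419 for Cyp2c69, 0.0135 for Gtpbp1, 0.0136 for Rdh1 and 0.0157 for 2210407C18Rik. Against dpc8 it was 0.000845 for Pnliprp1 and for Slc22a2, 0.0183 for Ccdc38, for 2210407C18Rik, for Cdkn3 and for Rdh1, and 0.0488 for Cyp2c69. Slc22a2 and Pnliprp1 kept both calls when any of the 12 libraries of the 2 stages compared was left out, and lost both with a pseudocount of 0.1 (adjusted p of 0.998 against NP and 0.733 against dpc8 for Slc22a2, and of 0.116 and 0.50 for Pnliprp1). Against NP, Ccdc38 and Cyp2c69 also kept their calls when any 1 library was left out, and with the pseudocount of 0.1 Cyp2c69 kept its call and Ccdc38 lost it. Rdh1 lost its call in 4 of 12, Gtpbp1 in 5 and 2210407C18Rik in 9. Against dpc8, Ccdc38 and Cdkn3 lost theirs in 9 of 12, Rdh1 in 10, 2210407C18Rik in 11 and Cyp2c69 in 12. The libraries above 5 FPKM of Y-linked genes are among those of NP, dpc8 and dpc16, and their part in these differences was not tested beyond leaving them out, after which Slc22a2 had an adjusted p of 0.0537 and Pnliprp1 of 0.0214 against NP.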

How the results depend on the processing

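None of the called genes tracked changed direction. Among genes that were not called, the log2 difference turned to −0.013 for Prlr with quantile scaling and, without the Y-linked libraries or without zone 3 replicate 3, to −0.074 for Cpt1a and 0.046 for Ccnd1. With 1 library left out it lay between −0.074 and 0.81 for Cpt1a, −0.44 and 0.046 for Ccnd1, and −0.44 and 0.081 for Nags, above 0 without zone 1 replicate 1 or zone 3 replicate 1 or 2. The 199 calls of zone 1 against zone 3 became 455 (246 higher, 209 lower) with array weights and 347 (184, 163) without the 6 libraries above 5 FPKM of Y-linked genes, an alternative chosen after seeing the data, and lay between 154 and 181 with 1 library left out, and between 157 and 264 in the others. Calls of the same direction at all 3 stages were 166 with array weights. Calls of the difference against NP were 2 with pseudocount 0.1, 11 with no filter, 3 with a minimum of 5 FPKM, 12 with array weights, 3 without the Y-linked libraries, and 4 to 8 with 1 library left out (4 without dpc16 zone 3 replicate 1, NP zone 1 replicate 1 or NP zone 3 replicate 2). Against dpc8 they were 0 with pseudocount 0.1 or a minimum of 5 FPKM, 21 with array weights, and 2 to 5 with 1 library left out, 2 to 4 for each of the 12 except dpc16 zone 3 replicate 2 (5). At pseudocount 0.1 values near 0 spread more. The other causes were not tested. Of 88 called genes tracked, 64 kept their call in every alternative in which they were tested and 24 lost it in at least 1. Among the 64, Lgr5, Pnliprp1, Rdh1, Rspo3, Slc22a2 and Wnt2 were not tested with a minimum of 5 FPKM. The tracked genes were the named ones, so these counts do not describe all 199. The replicate block (paired libraries of dpc16) gave 264 calls, among them all 199, and 7 and 10 for the differences against NP and dpc8, where it added Mki67. Low depth limits the genes under about 1 FPKM, and with 3 libraries per zone the spread is borrowed from all 27.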
